A study of Mus musculus with 8 samples.

Results

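The regions described here are runs of RNA polymerase II (Pol II) peaks that were listed in stimulated mouse macrophages and had no counterpart in untreated ones. They were found by chromatin immunoprecipitation followed by sequencing. Each Pol II peak is a single position with an overlap count, the number of sequenced fragments piled up there, called its height. A position of the list made 2 h after stimulation was taken as new when it lay more than 5 kb from every position listed in untreated cells (0 h). New positions under 5 kb apart were joined, and runs of 5 or more were kept as new tracts. On chromosomes 13 to 18 and X, positions beyond the last 0 h position were dropped, since the 0 h list stops early there. This gave 520 new tracts, which held 6207 of the 57200 Pol II positions listed at 2 h.

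The cells were primary macrophages grown from the bone marrow of female Fvb mice aged 6 to 8 weeks, stimulated with lipopolysaccharide and interferon gamma for 2 or 4 h or left untreated (0 h). Pol II was mapped at 0, 2 and 4 h, histone H3 trimethylated at lysine 4 (H3K4me3) or lysine 27 (H3K27me3) at 4 h and 0 h, and the demethylase Jmjd3 at 2 h. Each was 1 library, from 500000000 cells for Jmjd3 and 100000000 for the others. Differences between times thus lack a replicate check, and p-values are not given. Whether cells of several mice were pooled is not given in the sources used here. Intervals in parentheses are 95% intervals that cover counting error only, since neighbouring tracts are not independent.

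Pol II is the enzyme that transcribes protein-coding genes. Over a transcribed gene it is found near the start and along the body, so that a run of peaks can span a whole gene. H3K4me3 marks promoters and extends over the first part of active genes. H3K27me3 is the mark of Polycomb repression, and Jmjd3, an enzyme made by macrophages on exposure to lipopolysaccharide, removes its methyl groups. Lipopolysaccharide, a component of bacterial cell walls, and interferon gamma, a cytokine, together switch on inflammatory and antimicrobial genes.

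The tracts were chosen by the 2 h and 0 h Pol II lists, so their length, number of positions and 2 h heights are descriptions. Over 5 kb from any 0 h position lay 12420 of 55984 positions at 2 h (22.2%), and 49.98% of these fell into new tracts. A new tract had a median length of 12.3 kb (11.6 to 13.3), with quartiles at 8.28 and 18.7 kb and a range of 3.35 to 188 kb. It held a median of 8 positions, with quartiles at 6 and 13 and a highest number of 152. Positions within a tract followed each other at a median of 1534 bp. Most tracts were low: the tallest position had a median height of 23, with quartiles at 16 and 36, in a list whose lowest height was 10 and whose median was 17. Only a minority stood out, and the highest reached 387.

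Tracts just at the limits of the rule differed little in height from those just beyond it. The 108 tracts with exactly 5 positions had a median tallest height of 18, and the 160 runs of 4 positions that were left out had one of 16. The 579 positions at 2 h lying 5.0 to 5.5 kb from a 0 h position had a median height of 13, as did the 644 lying 4.5 to 5.0 kb from one.

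Every autosome held new tracts, from 9 on chromosome 18 to 51 on chromosome 2. The share of a chromosome's 2 h positions that lay in them went from 2.95% on X and 6.03% on chromosome 15 to 17.6% on chromosome 3 and 21.4% on chromosome 14. The chromosome 14 share rested on 33 tracts, and the X share on 4.

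The same rule with the Pol II lists exchanged gave runs at 0 h that lay over 5 kb from every 2 h position. There were 520 new tracts and 397 of these mirror tracts. With runs of 3 or more positions the order turned, with 944 new and 1003 mirror tracts. Positions over 5 kb from the other list made up 22.2% of the list at 2 h and 21.6% at 0 h (11998 of 55600). Of these, 49.98% at 2 h and 29.9% at 0 h fell into runs of 5 or more. Mirror tracts were shorter, with a median of 9.53 kb (8.98 to 10.1) and 6 positions. They show how many runs such a rule gives in the opposite direction with libraries of unknown depth.

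The new tracts were of 2 kinds by their surroundings, a division made after the values were seen. For 343 of them, Pol II positions at 2 h went on beyond an end, under 5 kb away, into ground within 5 kb of 0 h Pol II. These continued tracts belonged to 306 longer runs with a median length of 32.5 kb, of which new positions made up 50.7%, and the longest of these runs was 197 kb. The other 177 tracts were free-standing. The continued tracts lay a median of 5.60 kb (5.52 to 5.66) from a 0 h position, and the free-standing ones 21.4 kb (16.6 to 24.9), up to 359 kb. A continued tract adjoins ground within 5 kb of 0 h Pol II, so its short distance was fixed by the definition.

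The new stretches carried H3K4me3 and Jmjd3 less often than the longer runs that contain them, which was partly fixed by construction. A run holds every mark of its tracts, and also ground near 0 h Pol II that the rule left out. Runs were also longer, with a median of 32.5 kb against 12.7 kb for the continued tracts. Of the 343 continued tracts, 26.2% (21.7 to 31.2) overlapped an H3K4me3 cluster at 4 h, 17.5% (13.6 to 21.9) one at 0 h and 9.04% (6.22 to 12.6) a Jmjd3 position. Over all 2 h runs of 5 or more positions, these shares were 70.3%, 70.7% and 42.7%. Of the 306 runs around the continued tracts, 80.1% (75.1 to 84.4) held H3K4me3 at 4 h, 80.4% (75.5 to 84.7) at 0 h and 65.4% (59.7 to 70.7) Jmjd3. Free-standing tracts held H3K4me3 at a like rate, 28.2% (21.7 to 35.5) at 4 h and 24.9% (18.7 to 31.9) at 0 h, and Jmjd3 at 22.0% (16.2 to 28.9).

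The 4 h Pol II library was not used to choose the tracts. At 4 h, 86.5% (83.3 to 89.4) of the new tracts had Pol II under 500 bp from at least 1 of their 2 h positions. At 50% or more of their positions, 52.3% (47.9 to 56.7) had it. Both shares were higher in the other 2 h tracts, described below, at 98.7% and 81.2%. With those tracts weighted to the new ones by class of tallest height, they were 96.2% and 70.0%. In the median tract 50% (44.4 to 58.8) of the positions were listed again. Counted by position, 53.9% (52.6 to 55.1) of those in new tracts had a 4 h position that near, against 67.9% of all 2 h positions. Of the mirror tracts, whose Pol II was listed at 0 h and not at 2 h, 45.8% (40.9 to 50.9) had Pol II at 4 h. The difference, 40.7 percentage points (35.0 to 46.4), was larger than its counting error.

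Pol II at 4 h was thinner over the new tracts than the 2 h list was. There were 4019 positions at 4 h, against 6207 at 2 h, or 64.7 for every 100. Fewer were listed at 4 h than at 2 h in 399 tracts, more in 69 and as many in 52. Over the other 2 h tracts, which are the 1807 runs of 5 or more positions that came within 5 kb of 0 h Pol II and held no new tract, there were 87.5 at 4 h for every 100 at 2 h. Both kinds of tract were built from the 2 h list, and depths were unknown.

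Low positions were listed again less often than tall ones, and at each height the new tracts were below the others. Of the positions of height 10 to 12, 31.5% (29.5 to 33.6) in new tracts and 47.8% (46.4 to 49.1) in other tracts were listed again. At heights 18 to 38 the shares were 75% (72.9 to 77.1) in new and 82.9% (82.0 to 83.8) in other tracts. At heights of 39 and above they were 91.0% (88.2 to 93.3) and 92.7% (91.9 to 93.4), with overlapping intervals. Tall new Pol II was therefore listed again at 4 h nearly as often as tall Pol II elsewhere.

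At the extremes, 43 tracts had 4 h Pol II at every listed position and 70 had it at none. With few positions it is easier for all or none to be listed again. The 43 and the 70 both had a median of 6 positions, against 8 in all new tracts. The 43 were short, with a median of 7.53 kb, and taller, with a median tallest height of 37 (22 to 65). H3K4me3 at 4 h lay in 18 of the 43 and Jmjd3 in 12. The 70 had a median of 10.7 kb and a median tallest height of 16 (15 to 17). H3K4me3 at 4 h lay in 4 of them and Jmjd3 in 2. The tracts with no position listed again at 4 h and those listed again whole thus differed in height as well as in marks. The 70 were near the floor of the lists: their median heights at 2 h had a median of 12, and the lowest count of the 4 h list was 11. With depths unknown, not being listed does not show that Pol II was absent.

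**Figure D1:**
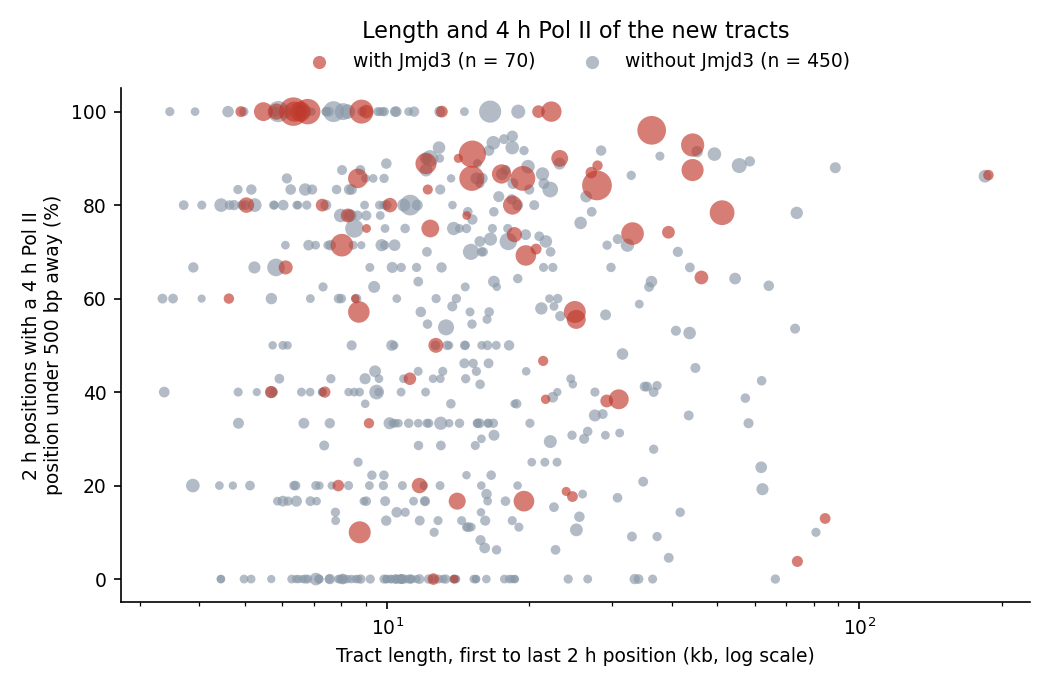
Each point is 1 of the 520 new tracts, by its length (kb, log scale) and the percentage of its 2 h positions with a 4 h Pol II position under 500 bp away; point area grows with the tallest 2 h height. Tracts with Jmjd3 (70) lie mostly in the upper part and are taller, while tracts without it (450) fill the whole range, including the row at 0.

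Jmjd3 positions fell in 70 of the new tracts, or 13.5% (10.6 to 16.7), and 132 Jmjd3 positions lay in them in all. The Jmjd3 list had a lowest height of 9 and a median of 10. Over all 2 h runs of 5 or more positions, 42.7% held Jmjd3, and over the other tracts 40.8% (38.6 to 43.1). The difference between new and other tracts was -27.4 percentage points (-31.1 to -23.7). It sets parts beside wholes, since other tracts are whole runs and 343 new tracts were parts of longer ones. The 483 whole runs holding new tracts had Jmjd3 at 49.5% (44.9 to 54.0), above the share of other tracts. Those runs were also longer, with a median of 23.3 kb against 12.5 kb for other tracts. New tracts were lower, with a median tallest height of 23 against 113. Other tracts were therefore weighted to the new ones by 4 classes of tallest height, cut at the quartiles of the new tracts. The difference was then -1.61 points, with an interval that includes 0 (-4.77 to 1.54). Such classes match height only roughly, since the median tallest height in the top class was 65 in new and 150 in other tracts. In the tallest class, heights 37 to 387, Jmjd3 lay in 41.4% (32.8 to 50.4) of 128 new and 55.4% (52.6 to 58.1) of 1317 other tracts; in the class of 24 to 36 it lay in 10 of 122 new and 4 of 158 other tracts.

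Against the mirror tracts the direction was the opposite. Jmjd3 lay in 13.5% of the new tracts and in 4 of the 397 mirror tracts, or 1.01% (0.275 to 2.56), a difference of 12.5 percentage points (9.36 to 15.5). Jmjd3 was mapped at 2 h alone, in stimulated cells, at the time that defined the new tracts. Jmjd3 of untreated cells is not analysed here.

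Tracts with Jmjd3 differed from those without it in other readouts. Their tallest 2 h position had a median height of 84.5 (55 to 147), against 21 (20 to 22) in the 450 without. They kept more Pol II at 4 h, with a median of 76.4% (66.7 to 84.2) of positions against 45.7% (40 to 53.6). H3K4me3 at 4 h lay in 74.3% (62.4 to 84.0) of them and in 19.6% (16 to 23.5) of the others. H3K27me3 at 4 h lay in 21.4% (12.5 to 32.9) against 4.44% (2.74 to 6.78). Height went with each of these, and its part in them was not tested. Within tracts, 84 of the 132 Jmjd3 positions (63.6%, 54.8 to 71.8) lay inside an H3K4me3 cluster of 4 h, and 46 (34.8%, 26.8 to 43.6) inside one of 0 h.

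H3K4me3 was scarcer in new tracts than in other tracts, but it was more often listed at 4 h alone. Of the 520, 140 tracts (26.9%, 23.2 to 31.0) overlapped a cluster at 4 h and 104 (20%, 16.6 to 23.7) one at 0 h. These shares were 72.8% (70.7 to 74.8) and 73.5% (71.4 to 75.6) in other tracts, and 70.3% and 70.7% over all 2 h runs. In the 483 whole runs that held new tracts they were 61.1% (56.6 to 65.4) and 60.0% (55.5 to 64.4). The comparison with other tracts, which are whole runs, thus partly sets parts beside wholes. With other tracts weighted to the height classes of the new ones, the difference at 4 h was -8.04 percentage points (-12.5 to -3.56), against -45.8 (-50.2 to -41.5) unweighted. At 0 h it was -16.9 points (-21.2 to -12.7), against -53.5 (-57.5 to -49.6) unweighted. Both times had a cluster in 82 new tracts, 4 h alone in 58, 0 h alone in 22 and neither time in 358. The 58 with H3K4me3 at 4 h and none at 0 h made up 11.2% (8.58 to 14.2) of new tracts. This share was 0.941% (0.549 to 1.5) in other tracts, 1.26% (0.410 to 2.91) in mirror tracts and 1.57% over all 2 h runs. Only a tract without H3K4me3 at 0 h can count here, and 20% of new but 73.5% of other tracts had it then. In the share at 4 h alone, new and other tracts differed by 10.2 percentage points (7.47 to 13), and by 9.84 points (7.02 to 12.7) when weighted by height class. The share at 0 h alone was 4.23% in new, 1.72% in other and 8.06% in mirror tracts. Only a tract without H3K4me3 at 4 h can count here, and 26.9% of new but 72.8% of other tracts had it then. Shares among the tracts that could count were not compared. Over all tracts, the share was higher in new than in other tracts by 2.52 points (0.684 to 4.35). Weighted by height class, the interval of that difference included 0 (0.943, -1.23 to 3.12).

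**Figure D2:**
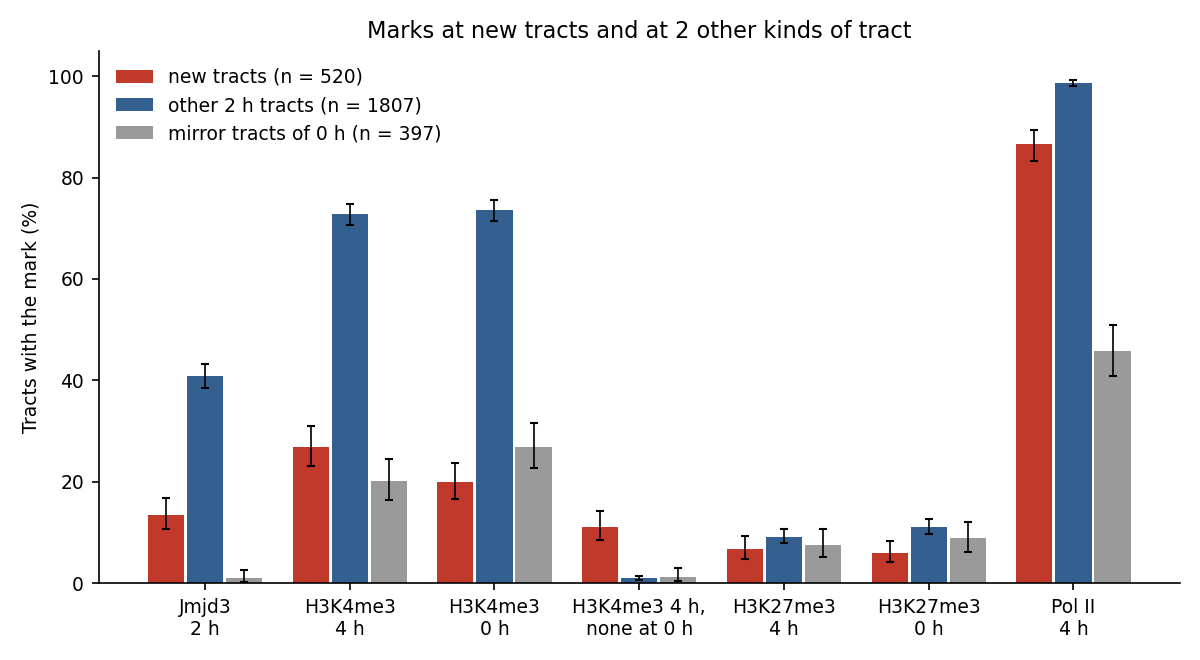
Bars give the percentage of tracts with each mark, for the 520 new tracts, the 1807 other 2 h tracts and the 397 mirror tracts of untreated cells; lines are exact 95% binomial intervals. Jmjd3 stands at 13.5% of new, 40.8% of other and 1.01% of mirror tracts, and H3K4me3 at 4 h without H3K4me3 at 0 h at 11.2%, 0.941% and 1.26%.

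The 58 tracts fell into 2 groups by what lay around them. In 33 of them, every 4 h cluster in the tract overlapped no 0 h cluster at all. In the other 25, a 4 h cluster reached into the tract from a place where untreated cells also had a cluster, outside the tract. These 58 tracts had a median tallest Pol II height of 36 (32 to 53), and a median of 78.1% (71.4 to 83.3) of their positions were listed again at 4 h.

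Counted by cluster, the new tracts held 171 H3K4me3 clusters at 4 h and 121 at 0 h. Of the 171, 57 (33.3%, 26.3 to 40.9) overlapped no 0 h cluster, against 5.07% of all 4 h clusters. The clusters in tracts had a median height of 41, and all 4 h clusters one of 97. Most of the 57 were low, with a median height of 14. Among clusters of height 11 to 23, 43 of 77 in tracts (55.8%, 44.1 to 67.2) were without a 0 h counterpart, against 19.4% of all 4979. Among clusters of height 24 to 97, 10 of 32 in tracts (31.3%, 16.1 to 50) were without a 0 h counterpart, against 0.513% of all 4871. Among those of height 98 to 193, 4 of 33 were (12.1%, 3.40 to 28.2), against 5 of all 4941. Those 4 in new tracts thus were 4 of the 5 such clusters in the whole list. In the opposite direction, 35 of the 121 clusters at 0 h (28.9%, 21.0 to 37.9) had none at 4 h, against 13.1% over the list. Most of these were of height 11 to 21, where the share was 49.2% (36.4 to 62.1) in tracts and 48.0% over the list. At heights 22 to 78 it was 12.1% (3.40 to 28.2), or 4 of 33, in tracts and 3.23% over the list.

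**Figure D3:**
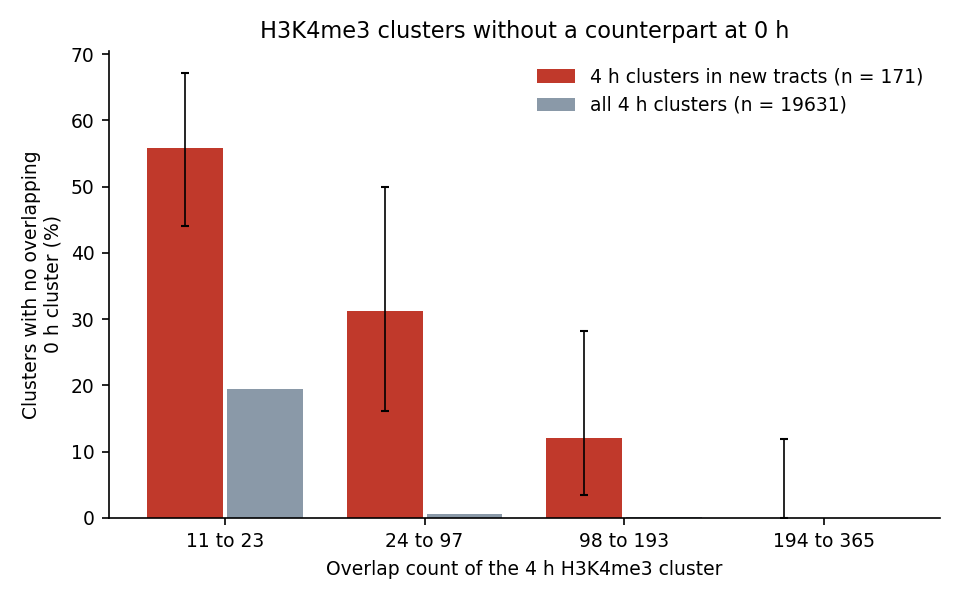
Bars give the percentage of 4 h H3K4me3 clusters that overlap no 0 h cluster, by the cluster's overlap count, for the 171 clusters in new tracts and for all 19631; lines are exact 95% binomial intervals. In the 3 lower classes the clusters in new tracts stand above all clusters, and in the tallest class none of 29 lacked a 0 h counterpart.

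H3K4me3 also covered more of the tracts at 4 h. In the 161 new tracts with the mark inside their ends, its length was greater at 4 h in 119 and greater at 0 h in 42. Summed, it covered 503 kb at 4 h and 236 kb at 0 h, or 5.74% and 2.69% of the tracts' 8757 kb. In other tracts it was greater at 4 h in 693 and at 0 h in 626 of 1345 and equal in 26, covering 26.8% and 26.3%. In mirror tracts it was greater at 4 h in 20 and at 0 h in 91 of 111. The shift toward 4 h in new tracts and toward 0 h in mirror tracts went the same way as Pol II, which chose both.

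Of the 380 new tracts without H3K4me3 at 4 h, 196 (51.6%) lay within 10 kb of a cluster and 50 lay over 50 kb from any. With tracts widened by 5 kb at each end, H3K4me3 was at 52.9% (48.5 to 57.2) of tracts at 4 h and 51.0% (46.6 to 55.3) at 0 h. The share with the mark at 4 h and none at 0 h was then 5.77% (3.93 to 8.13). Longer tracts held the mark more often, which a longer span favours, since any overlap counts. Of the 63 tracts of 20 or more positions, with a median length of 39.5 kb, 47.6% (34.9 to 60.6) had it at 4 h. Of the 108 tracts of 5 positions, with a median length of 6.87 kb, 16.7% (10.2 to 25.1) had it.

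H3K27me3 was rare. It was listed in 35 new tracts at 4 h (6.73%, 4.73 to 9.24) and in 31 at 0 h (5.96%, 4.09 to 8.36), against 9.52% and 11.4% of all 2 h runs. Both times had it in 26 tracts, 4 h alone in 9 and 0 h alone in 5. The share at 0 h was below that of other tracts by 5.16 percentage points (-7.66 to -2.66). With other tracts weighted by height class, the interval of the difference included 0 (-2.37, -5.06 to 0.327). The tract with the most H3K27me3, positions 78732647 to 78768961 of chromosome 11, had 24 positions at 4 h and 10 at 0 h. Their tallest heights were 28 at 4 h and 55 at 0 h, with more positions and a lower maximum at 4 h. The whole H3K27me3 list was also longer at 4 h, with 89093 positions against 59684 at 0 h.

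Marks lay toward the ends of tracts. With a tract divided into 4 equal sections, the first and last section together held 54.8% (53.5 to 56.0) of all 2 h positions. A tract begins and ends on a position by construction, which favours the ends. Both end sections together held the tallest position in 63.3% (59.0 to 67.4) of tracts, 65.9% (57.2 to 73.9) of Jmjd3 positions and 70.8% (63.3 to 77.5) of the centres of H3K4me3 clusters at 4 h. A centre beyond an end was counted at that end.

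Where a tract held a single 4 h cluster in an end section, it could be laid out from that end. This was so for 82 tracts, and each was cut into 5 equal parts. The tallest 2 h position was in the part at the H3K4me3 end in 42 tracts and in the part at the other end in 14. Median heights from the H3K4me3 end onward were 26, 21, 20, 20 and 21 at 4 h. At 2 h they were 20, 18, 17, 18 and 17. Pol II was therefore highest at the marked end and nearly level along the rest. Of the 23 Jmjd3 positions in these tracts, 19 were in the first part, 3 in the second and 1 in the last.

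**Figure D4:**
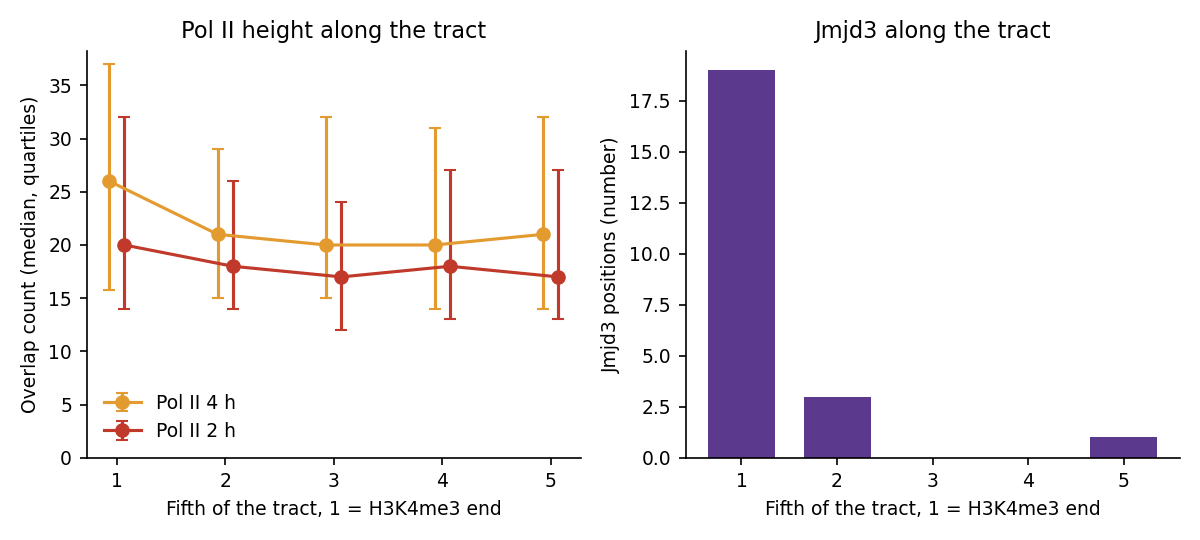
For the 82 new tracts with a single H3K4me3 cluster of 4 h at one end, the left panel gives the median overlap count of Pol II positions in each of 5 equal parts of the tract at 4 h and 2 h, with quartiles, and the right panel the number of Jmjd3 positions in each part. Pol II is highest in the first part (26 at 4 h, 20 at 2 h), and 19 Jmjd3 positions lie there.

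The longest tracts are named here by position on mm8. The longest, 188 kb, spanned 74234887 to 74422405 of chromosome 7 and had 161 Pol II positions at 4 h against 140 at 2 h. Its tallest heights were 45 at 4 h and 31 at 2 h. At its right end lay an H3K4me3 cluster of height 244 at 4 h, which also had a counterpart at 0 h, and 2 Jmjd3 positions lay inside the tract.

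The next, 184 kb, spanned 68725426 to 68909864 of chromosome 2 and had 148 positions at 4 h against 152 at 2 h, with tallest heights of 65 and 56. It held no Jmjd3, and its H3K4me3 clusters were low, of height 12 at 4 h and 14 at 0 h. The third, 88.9 kb, from 79145748 to 79234642 of chromosome 3, had 77 positions at 4 h against 75 at 2 h. In these 3 tracts 86.2 to 88.0% of the 2 h positions were listed again.

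Other long tracts were almost empty at 4 h. The tract of 66.4 kb from 151045891 to 151112258 of chromosome 4 had 1 position at 4 h against 45 at 2 h, and none of the 45 was listed again. Its 2 h heights had a median of 13 and a maximum of 20. The tract of 73.9 kb from 21850954 to 21924836 of chromosome 19 had 2 positions at 4 h against 53 at 2 h, with a tallest height of 37 at 2 h. An H3K4me3 cluster of height 237 at 4 h ended just before its left end. The tract of 80.9 kb from 28447479 to 28528366 of chromosome 6 had 5 positions at 4 h against 50 at 2 h, and that of 84.6 kb from 73591264 to 73675854 of chromosome 14 had 9 against 54.

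Median 2 h heights in these 4 tracts were 13 to 15, and in the 3 longest 16 to 26. Of the 10 longest, 4 had under 20% of their positions listed again and 3 had 80% or more. Jmjd3 lay in 3 of the 10, H3K4me3 at 4 h in 6 and at 0 h in 4, and no H3K27me3 was listed in any. The Jmjd3 heights there were 9 to 11, in a list whose lowest height was 9. The chromosome 19 tract counted for H3K4me3 at 4 h only through the widening by 250 bp. Among all 63 tracts of 20 or more positions, 17 had 80% or more of their positions listed again and 11 had 20% or less.

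**Figure D5:**
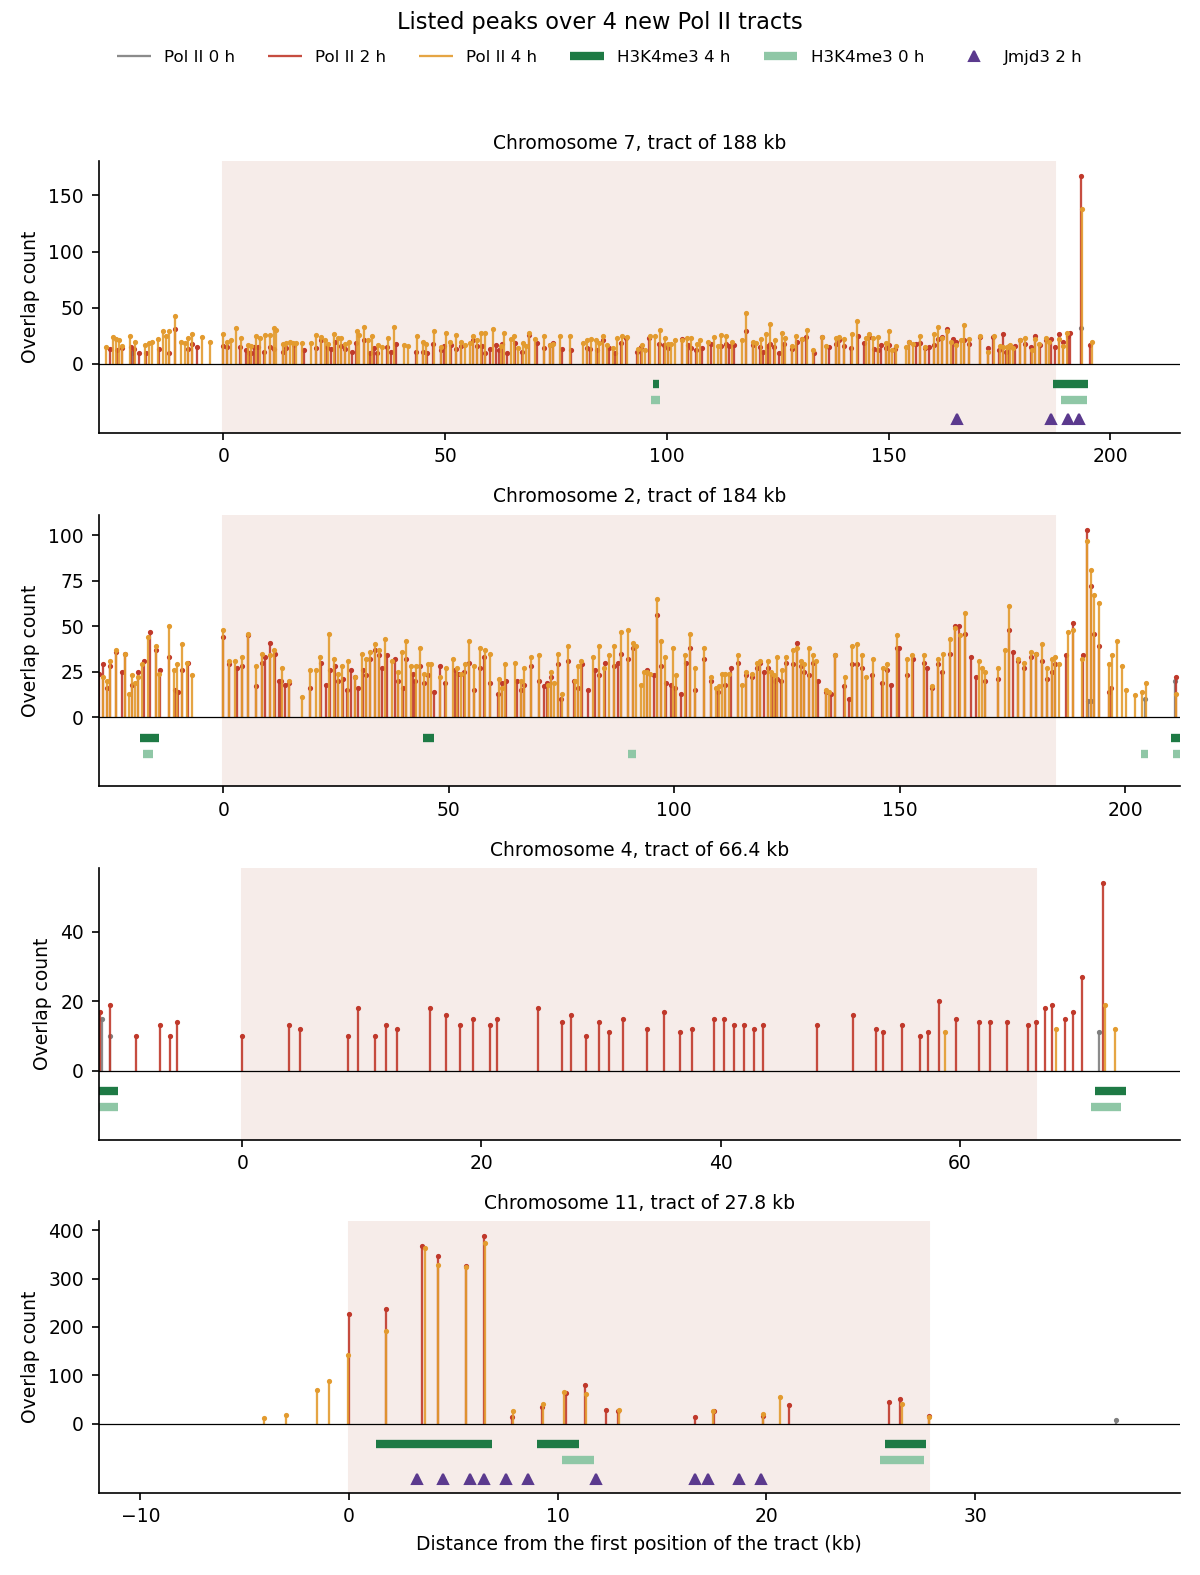
Listed peaks over 4 new tracts (shaded) by distance from the tract's first position in kb; vertical lines are Pol II overlap counts at 0, 2 and 4 h, bars below are H3K4me3 clusters at 4 h and 0 h, and triangles are Jmjd3 positions. The 2 longest tracts (188 and 184 kb) are filled at both 2 and 4 h, the chromosome 4 tract has 45 positions at 2 h and 1 at 4 h, and the chromosome 11 tract reaches a height of 387 at 2 h with 11 Jmjd3 positions. No 0 h Pol II position lies within 5 kb of the 2 h positions of any tract, by the rule.

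The tallest new tract spanned 83340102 to 83367917 of chromosome 11, 27.8 kb with 16 Pol II positions at 4 h against 19 at 2 h and tallest heights of 374 at 4 h and 387 at 2 h. It also held the most Jmjd3 of all, 11 positions with heights up to 30. It held 3 H3K4me3 clusters at 4 h and 2 at 0 h. The tallest, of height 134 at 4 h, had no counterpart at 0 h, and the nearest 0 h Pol II position was 8.97 kb away. The next tallest, 78732647 to 78768961 of chromosome 11, had 26 positions at 4 h against 25 at 2 h, 10 Jmjd3 positions and tallest heights of 326 and 359. One H3K4me3 cluster there had a height of 176 and a width of 7.53 kb at 4 h. It lay over clusters of height 21 and 24, each just under 3 kb wide, at 0 h.

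The third tallest was short, 6.33 kb from 27062281 to 27068611 of chromosome 12, and held 3 Jmjd3 positions and no H3K4me3 cluster at either time. Its 5 positions had heights, from left to right, of 175, 256, 130, 135 and 58 at 4 h and of 304, 355, 224, 229 and 55 at 2 h. All 5 were thus listed at both times, with lower counts at 4 h at the first 4. The nearest 4 h H3K4me3 cluster began or ended 1.02 kb outside it. Next was a tract of 15.2 kb from 93393594 to 93408747 of chromosome 5, with a tallest height of 57 at 4 h against 320 at 2 h. Both lists had 11 positions there, so that Pol II stayed listed along the tract while its highest count at 4 h was far lower.

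The fifth, 6.79 kb from 34636342 to 34643132 of chromosome 19, was listed at both times at all 6 positions, each with a lower count at 4 h, with counts from left to right of 259, 119, 124, 96, 160 and 233 at 4 h and 279, 183, 188, 129, 196 and 265 at 2 h. Its H3K4me3 cluster had a height of 162 and a width of 6.35 kb at 4 h, and a height of 17 and a width of 2.51 kb at 0 h. All 5 tallest tracts held Jmjd3, with 3 to 11 positions each. Jmjd3 heights were 9 to 11 in the chromosome 12 tract and 10 to 13 in the chromosome 5 tract, in a list whose lowest height was 9. They reached 30 and 33 in the chromosome 11 tracts and 22 in the chromosome 19 tract. Heights of different libraries are given as listed, with depths unknown.

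After both chromosome 11 tracts above, the most Jmjd3 positions lay in tracts on chromosomes 3 and 11, and 3 tracts followed with 4 positions each: the chromosome 5 tract above, one on chromosome 2 and another on chromosome 3. The leading chromosome 3 tract, 142431384 to 142450767, had 7 Jmjd3 positions with heights of 9 to 30. Its main H3K4me3 cluster was 9.29 kb wide and 153 high at 4 h and 3.21 kb wide and 99 high at 0 h. The other chromosome 11 tract, 117791071 to 117797431, had 5 Jmjd3 positions and 5 Pol II positions, with heights of 20, 88, 99, 88 and 13 at 4 h and 70, 161, 169, 159 and 25 at 2 h. An H3K4me3 cluster of height 71 and width 6.67 kb overlapped its first 4 Pol II positions at 4 h and ended before the last, and none was listed at 0 h. The chromosome 2 tract, 24167475 to 24173305, had 4 Jmjd3 positions and Pol II heights of 104, 127, 99, 38 and 57 at 4 h and 101, 85, 72, 26 and 77 at 2 h. Its H3K4me3 cluster had a height of 101 at 4 h and of 30 at 0 h.

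New tracts lay in groups. Joined when under 100 kb apart, the 520 formed 346 loci, of which 254 held 1 tract and 92 held 2 or more, with 266 tracts in the 92. Jmjd3 lay in 58 loci (16.8%, 13 to 21.1). The locus with the most tracts, 8 between 33961577 and 34255326 of chromosome 1, was low throughout, with a tallest height of 27, H3K4me3 in none of its tracts at either time and 37.4% of its positions listed again at 4 h.

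Other loci, singled out after their values were seen, were tall and lasting. Chromosome 18 held 5 tracts between 60335613 and 60570087, at least 55.5 kb from any 0 h Pol II. They had a tallest height of 228, and 87.1% of their positions were listed again. H3K4me3 lay in 3 of the 5 at 4 h and in none at 0 h. On chromosome 5, 6 tracts between 105316272 and 105533983 had a tallest height of 111, 79.4% of their positions listed again, and H3K4me3 in 3 at 4 h and in none at 0 h. On chromosome 3, 4 tracts between 142431384 and 142576180 had 16 Jmjd3 positions, at least 1 in each tract. H3K4me3 was listed in all 4 of them at both times, and 79.8% of their positions were listed again.

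The tracts farthest from untreated Pol II differed from the nearest ones in marks and height. Of the 43 tracts over 50 kb from any 0 h position, 34.9% (21.0 to 50.9) held Jmjd3, 51.2% (35.5 to 66.7) H3K4me3 at 4 h and 30.2% (17.2 to 46.1) H3K4me3 at 0 h. Of the 386 within 10 kb, 9.84% (7.06 to 13.3) held Jmjd3, 25.9% (21.6 to 30.6) H3K4me3 at 4 h and 18.9% (15.1 to 23.2) H3K4me3 at 0 h. The far tracts were also taller, with a median tallest height of 37 (25 to 66) against 22.5 (21 to 24). The tracts at distances between did not form a steady order: H3K4me3 at 4 h lay in 17.5% (7.34 to 32.8) of the 40 at 10 to 20 kb and in 21.6% (11.3 to 35.3) of the 51 at 20 to 50 kb. Their median tallest heights were 19 (17 to 31) and 19 (17 to 25), below those of both the near and the far tracts. The 43 far tracts share loci, so that they are fewer separate sites than tracts.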

How the data were processed

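The deposited files are peak lists, 1 for each of 8 chromatin immunoprecipitation libraries, and their value is a whole-number overlap count, a signal that per the file headers and labels is not scaled to depth or a control. The submitters' processing notes name mm8 as the build. How reads were aligned, how peaks were called and against which control is not given in the sources used here. Per the labels' protocols, more than 10000000 tags were uniquely mapped for a library; exact depths were unknown, and lists differed in their lowest count, from 9 to 11.

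Tracts were built as the report states. A mark was counted at a tract when its peak overlapped the tract widened by 250 bp at each end. Shares have exact 95% Clopper-Pearson intervals, medians order-statistic intervals from the binomial distribution, and differences 95% Wald intervals. Named tracts were the 10 longest, the 5 with the tallest 2 h position and the 5 with the most Jmjd3 positions; others were named after their values were seen. Members, rules and comparisons were chosen with earlier results of these data known. The gene table at hand is on another build than mm8, so genes, sequences and macrophage markers are not analysed here. Alternatives covered the distances, chain length, height, chromosomes, overlap and weighting. Weighting to height used 4 classes of tallest height, cut at the quartiles of the new tracts, and left heights unequal within the top class. On simulated lists the chain rule found 81 of 81 planted tracts among 2181 positions. Scripts ran in Python 3.11.15 with scipy 1.17.1 for intervals, numpy 2.4.6 and pandas 2.3.3 for tables and matplotlib 3.10.9 for plots.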

Additional observations from a re-analysis of the deposited data

How the results depend on the processing

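With 1 library per group, no value has a replicate check, and library depth, which is unknown, limits any statement on absence at 0 h. No paired analysis was possible because each group holds 1 library. Of 173 alternatives of 16 results, 130 kept their call: a share or median stayed within its counting error, a count within 1.5 times, and a difference kept its direction with an interval that excluded 0, though its size could move far. The H3K4me3 difference at 4 h between new and other tracts ran from -55.9 to -8.04 points, that at 4 h alone from 4.50 to 19.9, and between new and mirror tracts Jmjd3 ran from 10.9 to 24.7 and 4 h Pol II from 29.7 to 44.1. The 1 difference whose interval came to include 0 was that in Jmjd3 between new and other tracts, -1.61 points with other tracts weighted to height, an alternative chosen after seeing the data; its other alternatives ran from -40.1 to -18.6. The comparisons with mirror tracts and of H3K4me3 at 4 h alone were also added after seeing the data, and weighting mirror tracts to height puts heights of 2 libraries on 1 scale.

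New tracts numbered 791 and 318 beyond 2 and 10 kb of 0 h, 944 and 206 with at least 3 and 10 positions, and 158 at or above the median height. Mirror tracts numbered 261 beyond 10 kb, 1003 and 111 with at least 3 and 10 positions, and 71 at or above the median height, so that with 3 positions they outnumbered the new ones. Median length was 7.93 and 16.8 kb with gaps of 2.5 and 10 kb, 7.07 and 21.7 kb with 3 and 10 positions and 10.9 kb at the height limit; median positions were 7 with the 2.5 kb gap and 5 and 15 with 3 and 10 positions. Median 4 h coverage was 62.5% with the 2.5 kb gap, 60.0% with 10 positions, 83.3% at the height limit and 72.1% with positions under 1 kb counted as shared. H3K4me3 at 0 h was 32.1% beyond 2 kb, 16.1% with the 2.5 kb gap, 16.4% and 27.7% with 3 and 10 positions, 27.8% at the height limit, 23.9% with chromosome ends kept and 51.0% with tracts widened by 5 kb. H3K4me3 at 4 h was 40.2% beyond 2 kb, 20.7% and 36.4% with 3 and 10 positions, 46.2% at the height limit, 52.9% widened and 20.2% with 50% of a cluster inside. H3K4me3 at 4 h alone was 8.49% beyond 10 kb, 8.05% with 3 positions, 20.9% at the height limit, 5.77% widened and 7.88% with 50% of a cluster inside. Jmjd3 was 17.5% with 10 positions, 24.7% at the height limit and 20% widened. The causes were not tested.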

Other observations

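The chromosome ends left out by the rule held 45 further runs of 5 or more 2 h positions, where the 0 h list has no peak at all. These were tall, with a median tallest height of 113, and a median of 80% of their positions were listed at 4 h, which resembles the other 2 h tracts (113 and 75%) rather than the new ones (23 and 50%). The longest spanned 77998715 to 78068052 of chromosome 18, 69.3 kb with 59 positions and 3 Jmjd3 positions.

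A tract with a tall 2 h peak and much H3K27me3 at both times was listed on chromosome 4, from 124155292 to 124164793. It had 7 H3K27me3 positions at 4 h and 8 at 0 h, with tallest heights of 193 and 140, beside a Pol II height of 81 at 2 h and 2 Pol II positions at 4 h. On chromosome 2, the tract from 164753200 to 164764390 reached a Pol II height of 178 at 2 h with 7 H3K27me3 positions at 4 h and 6 at 0 h, an H3K4me3 cluster at 4 h and none at 0 h, and no Jmjd3.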
